A study of Arabidopsis thaliana with 6 samples.

Results

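The beta-glucosidases BGLU15, BGLU16 and BGLU40 to BGLU47 of Arabidopsis thaliana were followed in wild-type and dcl1-15 embryos. The members were chosen by gene name, as every gene of this set with a probe set assigned to that gene alone. Of the 10 genes named, 9 had such a probe set, and BGLU43 was not analysed here. They are 9 of 9531 genes with a probe set of their own. Below, a listed or neighbouring gene is called measured only where it has such a probe set. A gene without one may still be read by the 7126 probe sets without a gene name or the 365 with several. Each of the 9 was read by a single probe set whose identifier ends in _at, the array's suffix for probes designed against a single transcript. Probe sequences were not used here, so cross-hybridization between similar genes of the family was not tested.

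RNA was taken from 6 pools of 300 embryos, 3 per genotype, and measured on single-colour oligonucleotide arrays. The wild-type embryos were DCL1/DCL1, at the torpedo stage, from DCL1/DCL1 plants among the progeny of a DCL1/dcl1-15 parent. The dcl1-15 embryos were homozygous for the mutant allele, and came from siliques of DCL1/dcl1-15 plants whose normal siblings were torpedo-stage embryos, so the mother plants of the groups differed in genotype too. Both genotypes share a Ws background crossed repeatedly to Landsberg erecta. The DCL1 protein is a ribonuclease that releases microRNAs from their hairpin precursors. The level of its gene was not analysed here and gives no check of the labels.

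Beta-glucosidases of glycoside hydrolase family 1 remove glucose, and in some members other sugars, from small molecules. Plants store many phenolic compounds, hormones and defence compounds as inactive glucosides, and the hydrolase releases the active part. BGLU45 and BGLU46 act on glucosides of monolignols, the alcohols from which lignin is built, and BGLU47 is grouped with them by sequence. BGLU15 acts on flavonol glycosides, BGLU44 prefers beta-mannosides, and BGLU42 takes part in coumarin release and induced resistance in roots. No role is given here for BGLU16, BGLU40 or BGLU41.

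Most of the 9 genes were higher in dcl1-15 embryos. BGLU46, BGLU41, BGLU40, BGLU15, BGLU44, BGLU45 and BGLU16 rose and BGLU47 fell, while BGLU42 did not pass the test, though it did with the arrays paired by replicate number. A gene is said to have risen or fallen where its limma p-value, adjusted by the Benjamini-Hochberg method over all 17122 probe sets, was below 0.05. By that rule 39.1% of all probe sets changed, 18.3% upward and 20.8% downward, against 8 of the 9 members, 7 of them upward. The members' median difference was 1.13 on the log2 scale, against -0.07 over all probe sets. Of the members, 7 changed by at least 2-fold, 6 upward, where 22.7% of all probe sets did and 11.6% upward. The values of the genotypes did not overlap for any of the 9 members, which was also so for 52.5% of all probe sets. In pooled embryos, fewer cells of a type and less RNA per cell cannot be told apart.

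**Figure D1:**
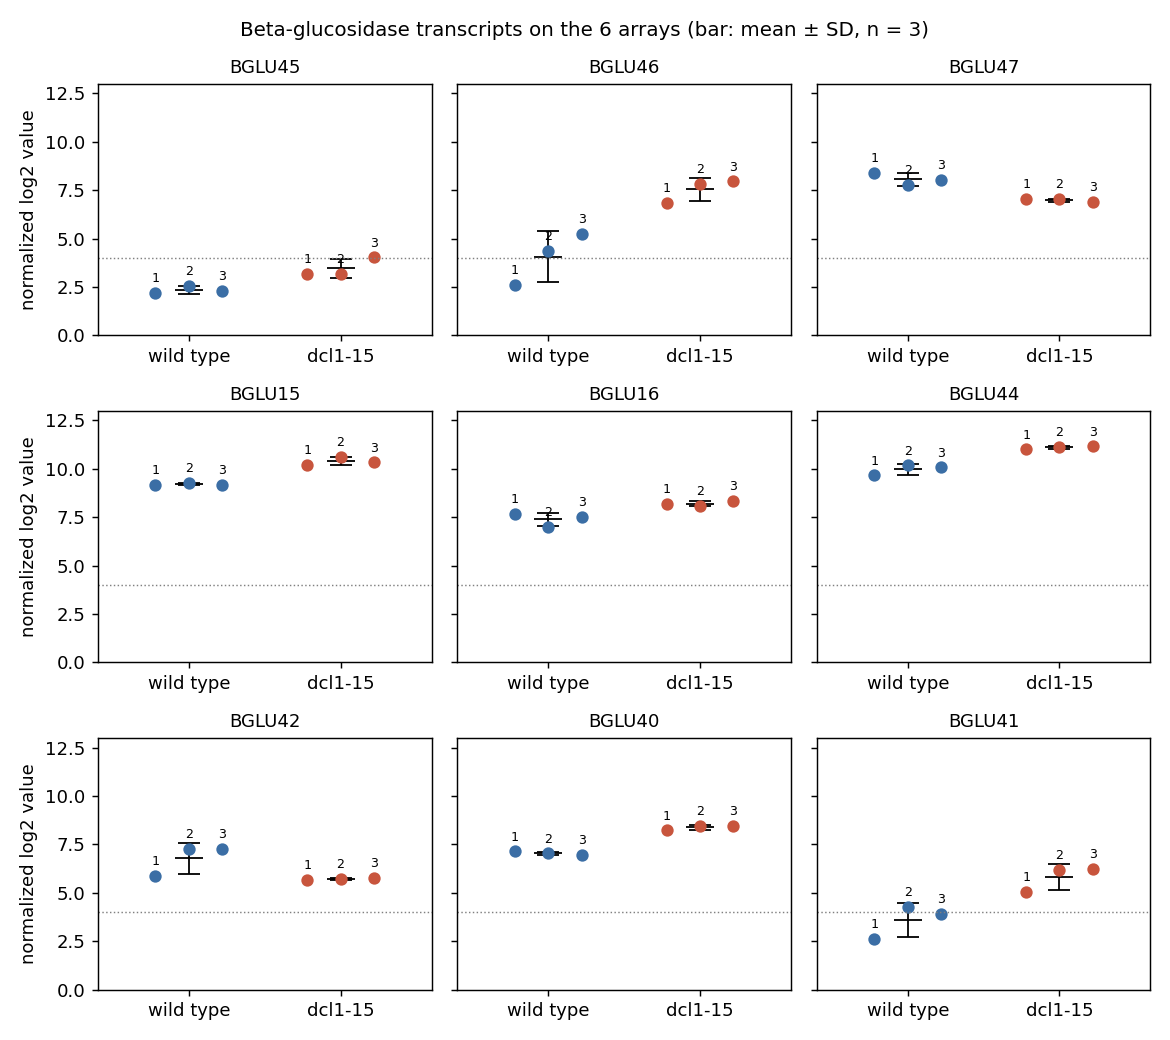
Normalized log2 values (vertical axis) of the 9 beta-glucosidases on the wild-type (blue) and dcl1-15 (red) arrays, numbered by replicate, with the mean ± SD of 3 arrays and a dotted line at log2 of 4. The dcl1-15 values lie above all wild-type values for 7 genes and below them for BGLU47 and BGLU42.

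The monolignol glucosidase genes moved in opposite directions. BGLU46 (AT1G61820) measured 2.62, 4.34 and 5.23 in wild type and 6.86, 7.81 and 7.95 in dcl1-15. Its lowest mutant value stood 1.63 above its highest wild-type value, and its wild-type arrays were spread over 2.61 units. The gene rose by 3.47 ± 0.61 (SE, n = 3 per genotype; limma adjusted p = 0.00263), or 11.1-fold. This was the largest change among the 9 members. The rise was 6.73-fold when wild-type replicate 1, the array with the value of 2.62, was left out, and the adjusted p was then 2.45e-04.

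BGLU45 (AT1G61810), adjacent on the chromosome and of the same substrate class, was near the low end of the scale on all arrays. It measured 2.17, 2.54 and 2.31 in wild type and 3.15, 3.19 and 4.02 in dcl1-15. The groups did not overlap, and the gene rose by 1.12 ± 0.25 (SE; adjusted p = 0.00878). Since 5 of its 6 values lie below log2 of 4, setting all lower values to 4 left a difference of 0.01 (adjusted p = 0.531).

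BGLU47 (AT4G21760) was the only member that fell in the fit without pairing of the arrays, and BGLU42 fell too with the replicate number as a block (adjusted p = 0.0183). It measured 8.39, 7.75 and 8.04 in wild type and 7.03, 7.03 and 6.89 in dcl1-15. All mutant values lay within 0.14 of each other, below the lowest wild-type value. The difference was -1.08 ± 0.23 (SE; limma adjusted p = 0.00632), a level 2.11-fold lower.

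The changes of these 3 genes were set against each other within each array. The log2 ratio of BGLU46 to BGLU47 went from -4.00 ± 1.57 (SD, n = 3) in wild type to 0.55 ± 0.65 in dcl1-15, a shift of 4.55. The ratio of BGLU45 to BGLU47 shifted by 2.19, and that of BGLU45 to BGLU46 by -2.36. Since most values of BGLU45 are low, the ratios were also taken with values below log2 of 4 set to 4. The shifts were then 4.09 for BGLU46 to BGLU47, 1.08 for BGLU45 to BGLU47 and -3.00 for BGLU45 to BGLU46, so the sizes that involve BGLU45 are not settled. In each of the 3 pairs the ratios of the genotypes did not overlap, with or without that floor. A two-sided exact permutation test gave p = 0.1 for each, and 0.1 after adjustment over the 3 pairs. That is the smallest value that 3 arrays against 3 allow. For the pairs with BGLU47 both outcomes were fixed by the single genes, which moved in opposite directions without overlap. They add no support to the differences of those genes. With the floor, BGLU45 stood at 4 on all arrays but dcl1-15 replicate 3, at 4.02. Its floored ratios therefore follow the other gene of the pair and say nothing about BGLU45.

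**Figure D2:**
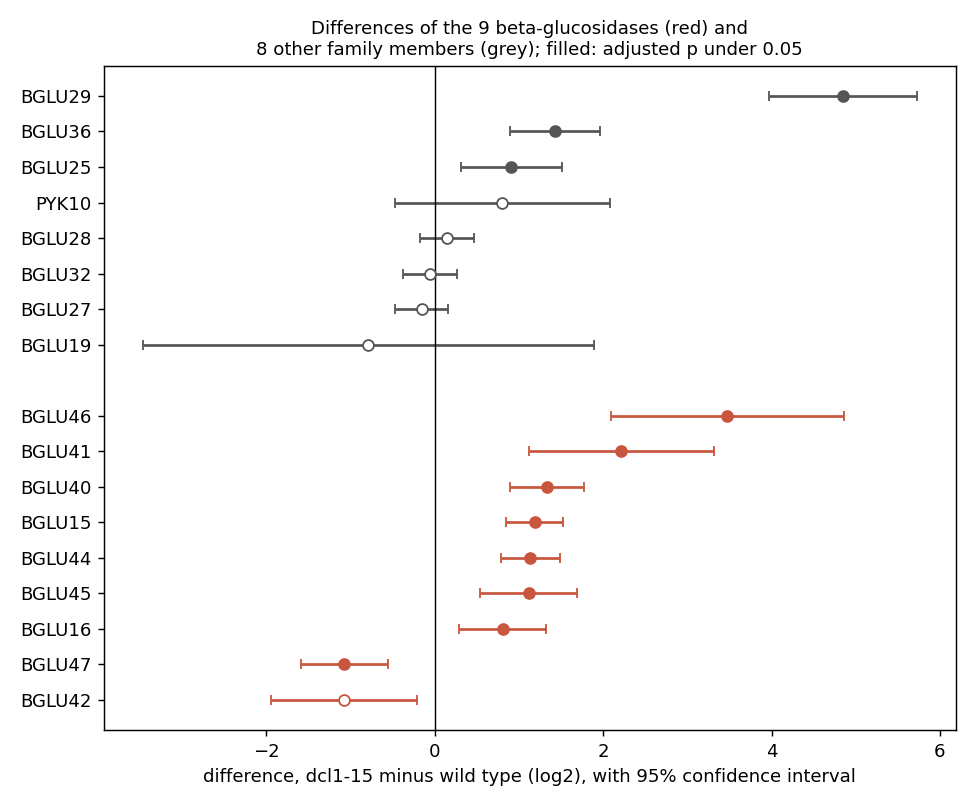
Difference between dcl1-15 and wild type (log2, horizontal axis) with its 95% confidence interval, for the 9 beta-glucosidases (red) and 8 other genes of glycoside hydrolase family 1 (grey), with filled points past the threshold. BGLU46 has the largest difference of the 9, at 3.47, and BGLU47 and BGLU42 lie below 0.

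BGLU15 (AT2G44450), the flavonol glycoside hydrolase, rose with little spread between arrays. Its wild-type values were 9.15, 9.26 and 9.19, and its mutant values 10.21, 10.61 and 10.34. The wild-type arrays differed by at most 0.11, and the gap between the genotypes was 0.95. The rise was 1.18 ± 0.15 (SE; limma adjusted p = 5.06e-04), or 2.27-fold.

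BGLU16 (AT3G60130) had the smallest rise of the 7 genes that rose. It measured 7.67, 7.02 and 7.51 in wild type and 8.17, 8.10 and 8.35 in dcl1-15. The gap of 0.43 between the groups was smaller than the wild-type range of 0.65. The rise was 0.81 ± 0.23 (SE; limma adjusted p = 0.0224), or 1.75-fold. It did not pass without wild-type replicate 2 (adjusted p = 0.0771). The same held when any single dcl1-15 array was left out (adjusted p from 0.0527 to 0.0881) and when the scale was set by 2 reference genes (adjusted p = 0.0636).

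BGLU44 (AT3G18080), whose enzyme prefers beta-mannosides, measured 9.67, 10.18 and 10.08 in wild type and 11.01, 11.15 and 11.16 in dcl1-15. All mutant arrays were above all wild-type arrays by at least 0.83. The rise was 1.13 ± 0.15 (SE; limma adjusted p = 7.22e-04), or 2.19-fold. BGLU43, its neighbour on the chromosome, was not analysed here.

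BGLU42 (AT5G36890), of root coumarin release, was lower in the mutant without passing the test. It measured 5.87, 7.27 and 7.25 in wild type and 5.68, 5.70 and 5.76 in dcl1-15. Wild-type replicate 1 lay 0.11 above the highest mutant value, while the other wild-type arrays were at 7.25 or above. The difference was -1.08 ± 0.38 (SE; limma adjusted p = 0.0507, unadjusted p = 0.0199). With the replicate number as a block the adjusted p was 0.0183, and without wild-type replicate 1 the difference was -1.54 (adjusted p = 3.38e-04). Without any other single array BGLU42 did not pass (adjusted p from 0.109 to 0.161). Of its alternative settings, 6 passed and 9 did not.

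BGLU40 (AT1G26560) measured 7.14, 7.04 and 6.98 in wild type and 8.22, 8.46 and 8.47 in dcl1-15. Both groups were tight, with ranges of 0.16 and 0.24 and a gap of 1.08 between them. It rose by 1.33 ± 0.19 (SE; limma adjusted p = 9.92e-04), or 2.51-fold.

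BGLU41 (AT5G54570) measured 2.61, 4.29 and 3.92 in wild type and 5.03, 6.19 and 6.23 in dcl1-15. The arrays numbered 1 held the lowest value of each genotype, and the groups stood 0.74 apart. The rise was 2.21 ± 0.48 (SE; limma adjusted p = 0.00736), or 4.64-fold, the second largest of the 9. Of its values, 2 lie below log2 of 4, both in wild type. With lower values set to 4 the rise was 1.72 (limma adjusted p = 0.0315), or 3.30-fold. With 1 array left out it ranged from 1.71, without wild-type replicate 1, to 2.61, without dcl1-15 replicate 1.

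The spread between arrays was uneven across the set. Wild-type replicate 1 held the lowest wild-type value for 6 of the 9 genes, as it did for 7187 of the 17122 probe sets, and the wild-type SD was above the mutant SD for 6 of 9 genes and for 62.7% of all probe sets. The 95% interval of the BGLU46 difference, 2.09 to 4.86, lies above those of BGLU40, BGLU15, BGLU44, BGLU45 and BGLU16, whose upper ends run from 1.33 to 1.77. It overlaps that of BGLU41, at 1.11 to 3.31. The intervals of those 5 smaller rises all overlap each other.

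Several members lie beside other genes of the family, by the gene order of RefSeq assembly TAIR10.1. BGLU15, BGLU28 and BGLU29 follow each other on chromosome 2. BGLU28 measured 1.82 to 1.89 in wild type and 1.84 to 2.25 in dcl1-15, and did not pass (limma adjusted p = 0.454). BGLU29, next to BGLU28, rose by 4.85 ± 0.39 (SE; adjusted p = 4.58e-05), from 4.43, 6.07 and 5.79 to 10.28, 10.33 and 10.21. BGLU16 lies beside BGLU27 on chromosome 3, which measured 1.97 to 2.38 on all arrays and differed by -0.16 (adjusted p = 0.397). BGLU45 and BGLU46 lie side by side on chromosome 1 and both rose, by 1.12 and 3.47. The rise of BGLU45 was among low values and was 0.01 with values below log2 of 4 set to 4. Outside the family, 10 genes within 2 places of a member were measured. Their median difference was 0.10. Over all 17122 probe sets 10420 did not pass, and of these 10 neighbours 9 did not, with differences of -0.86 to 1.04. The exception was AT1G61850, the second gene beyond BGLU46, which rose by 1.45 ± 0.35 (SE; limma adjusted p = 0.0111). Neighbouring family genes are similar in sequence, and shared probe signal between them was not tested.

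**Figure D3:**
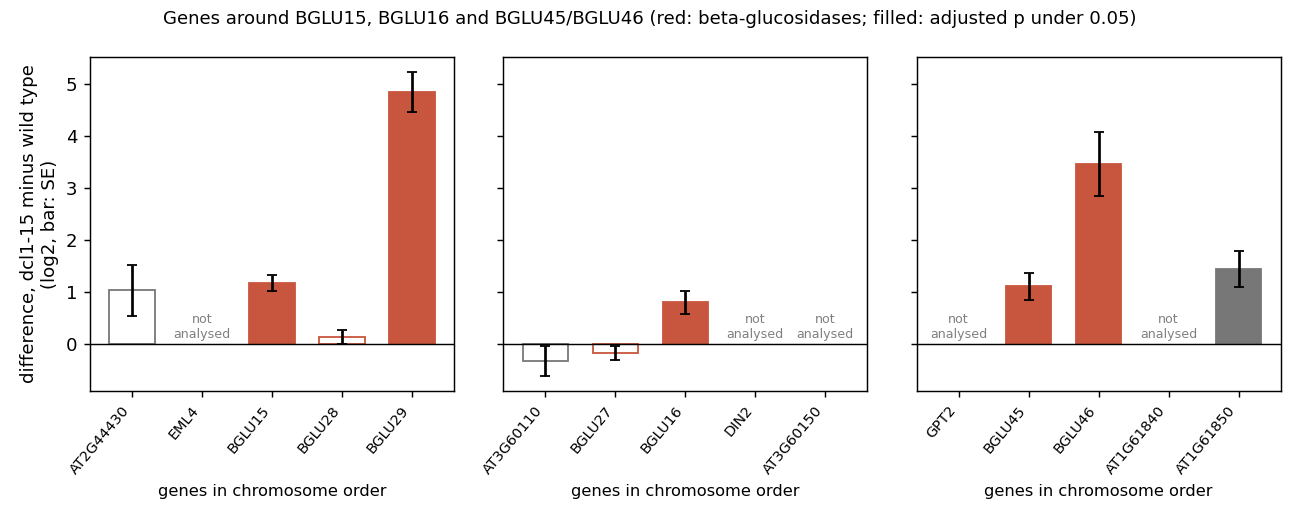
Difference between dcl1-15 and wild type (log2, vertical axis, with SE) for the genes on either side of BGLU15, BGLU16 and BGLU46, in chromosome order, with beta-glucosidases in red, other genes in grey and filled bars past the threshold. BGLU15 and BGLU29 rose on either side of BGLU28, which differed by 0.14.

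Of the 8 other measured genes of glycoside hydrolase family 1, 3 rose and 5 did not pass, with a median difference of 0.47 and a range of -0.79 to 4.85. In 4 of these 8 no value exceeded log2 of 4, whereas each of the 9 members had at least 1 value above it. Whether the share of changed genes differs between the groups of genes was not tested.

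Few genes that make or use the substrates had a probe set of their own. Of 19 listed genes of monolignol synthesis, HCT, an acyltransferase of that pathway, was the only gene measured, and it rose by 1.10 ± 0.30 (SE; limma adjusted p = 0.0190) from 7.00, 6.04 and 6.44 to 7.88, 7.63 and 7.27. Of 20 genes for glucosylation, export and polymerisation of monolignols, 3 were measured and 2 rose. UGT72E3, which puts glucose on monolignols and so runs opposite to BGLU45 and BGLU46, rose by 1.15 ± 0.22 from a low wild-type level of 2.47 ± 0.20 (SD), with all its values below log2 of 4. AT5G64120, a cell wall peroxidase gene, rose from 2.41, 2.37 and 2.36 to 5.23, 5.03 and 4.74. None of 11 listed lignin regulators had a probe set assigned to that gene alone. The median difference of the 3 measured genes of glucosylation, export and polymerisation was 1.15, that of UGT72E3, against -0.07 over all probe sets. In 2 of the 3 no value exceeded log2 of 4.

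For the other substrates the counts were also small. Of 12 listed genes for flavonol and coumarin glycosides, 3 were measured, AT1G06000 rose and 2 did not pass, with a median of 0.43. AT1G06000 encodes the rhamnosyltransferase that acts at the flavonol 7 position, a step towards the glycosides that BGLU15 cleaves, and it rose by 0.92 ± 0.26 (SE; limma adjusted p = 0.0229). Of 11 listed genes of mannan synthesis and breakdown, 1 was measured, and it did not pass, with a difference of 0.08. Among the 29 measured genes with a UGT name, which encode enzymes that attach sugars to small molecules, 9 rose, 1 fell and 19 did not pass. Their median was 0.06, against -0.07 over all probe sets.

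Genes that mark the tissues enclosing the embryo were higher in the mutant samples too. Of 18 listed markers of seed coat and endosperm, 4 were measured and all 4 rose, with a median of 1.77. They were BAN and DFR, of tannin synthesis, the seed coat protease gene DELTA-VPE and the sugar transporter gene SWEET11. The summed level of the 4 was 9.76 to 10.75 on the log2 scale in wild type and 11.69 to 12.12 in dcl1-15. None was listed at 0. BAN was low on all arrays, at 1.53 to 3.65 in wild type and 3.90 to 4.91 in dcl1-15, and the other 3 measured 6.60 or more on all arrays. Wild-type replicate 1 held the lowest wild-type value of BAN, DFR and DELTA-VPE, as of BGLU46 and BGLU41, and the highest of SWEET11. The part of these tissues in the rises of the beta-glucosidases was not tested.

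**Figure D4:**
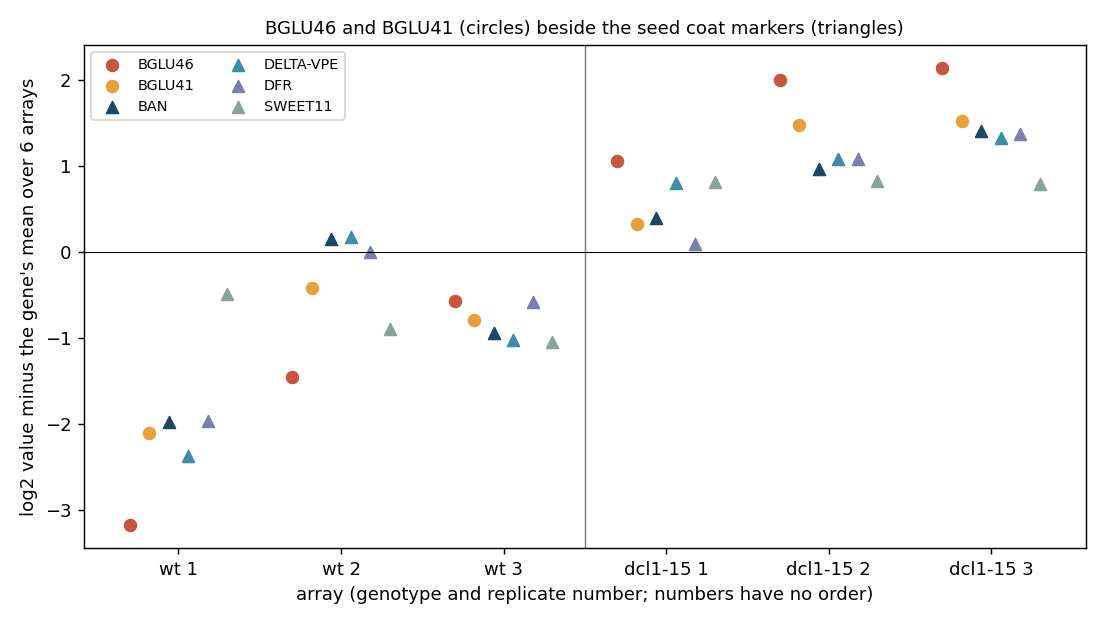
Log2 values minus each gene's mean over the 6 arrays (vertical axis) on each array (horizontal axis) for BGLU46 and BGLU41 (circles) and the 4 measured markers of seed coat and endosperm (triangles). All 6 genes are higher on each dcl1-15 array than on each wild-type array, and 5 of the 6, all but SWEET11, have their lowest value on wild-type replicate 1.

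Of 17 listed embryo markers 5 were measured, of which 3 rose and 2 fell. Their summed level was 12.55 to 12.74 on the log2 scale in wild type and 13.80 to 13.87 in dcl1-15. The genes with the highest values dominate this sum, and the 2 that fell add little to it. The storage protein gene PAP85 had the largest change of the 5, from 5.94 ± 1.78 (SD) to 12.08 ± 0.06. The oleosin gene OLEO3 was at 12.23 ± 0.21 (SD) in wild type and 12.89 ± 0.05 in dcl1-15, and the bZIP factor gene EEL at 10.35 to 10.65 and 11.34 to 11.45. The 2 that fell were BBM and CLV3, of embryogenic growth and the shoot meristem, CLV3 with all values below log2 of 4.

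The genes with profiles most like the 2 members that changed most were found by the root mean square distance over the 6 arrays, after each gene was centred on its own mean, among 1286 other genes with a symbol. Closest to BGLU46 were FMO, NQR and AMY1, at distances of 0.27, 0.39 and 0.67. FMO measured 4.12, 5.90 and 6.04 in wild type and 8.25, 9.14 and 8.98 in dcl1-15. Closest to BGLU41 were RING1, AGL16 and DFR, at 0.16, 0.18 and 0.28. AGL16, a MADS-box gene and a target of miR824, measured 5.97, 7.43 and 6.96 in wild type and 8.20, 9.27 and 8.99 in dcl1-15. Its array of lowest value was replicate 1 in both genotypes, as for BGLU41. All 6 of these genes rose in dcl1-15 themselves, which follows from their choice by likeness to members that rose. The distances describe 6 arrays only.

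**Figure D5:**
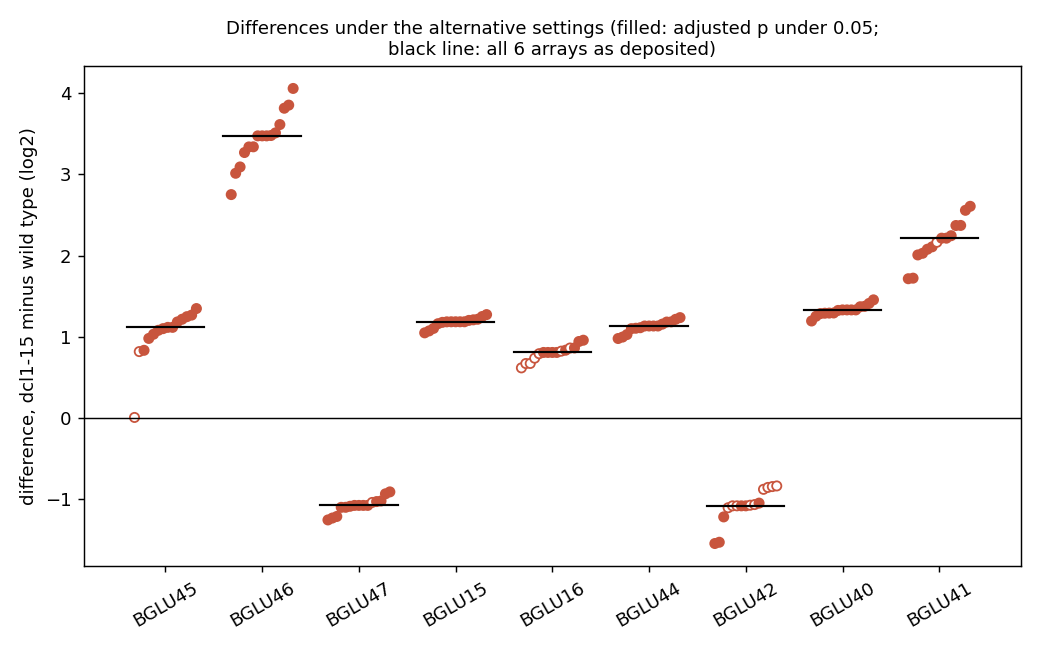
Difference between dcl1-15 and wild type (log2, vertical axis) of each beta-glucosidase under each alternative setting (circles, filled where the adjusted p is under 0.05) and with all 6 arrays as deposited (black line). All circles keep the sign of the line, BGLU16 and BGLU42 have the most that differ from it in call, and BGLU45 has a circle at 0.01 where values below log2 of 4 were set to 4.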

How the data were processed

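Gene expression was measured in 6 samples, 3 per genotype. The table deposited by the authors gives 17159 probe sets as normalized log2 values. GCRMA and MAS5 are named in the submitters' processing notes without their roles, and the choice of rows is not given in those notes. Without scanner files or detection calls, a low value has no stated distance from background, and a fold is one of normalized values. For arrays, their number limits the precision. Array medians lay between 6.34 and 6.48.

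Control probe sets of the array, 37 in number, were left out. The platform annotation named 1 gene for 9631 of the 17122 others, of which 9584 were found in the RefSeq table of assembly TAIR10.1. Differences, dcl1-15 minus wild type, were tested with lmFit and trended eBayes of limma 3.58.1 (R 4.3.3), adjusted by the Benjamini-Hochberg method over all 17122. The code was tested on simulated data. Lists were matched by locus tag; the lists, the members and the rule for named genes were chosen with earlier results of these data known, and the UGT genes were added after the members' values were seen. The named genes are all members, up to 4 genes past the threshold from each list, and the 3 nearest profiles for each of the 2 members with the largest change. OLEO3, with the smallest change of the 5 measured embryo markers, was named beyond that limit. BGLU28, BGLU29 and BGLU27 were named for their position, AT1G61850 after its value was seen, as the only neighbour outside the family that passed, and the UGT genes are given as counts. The labels call the samples biological replicates. Protein and promoter sequences were not analysed here.

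Deviations from each genotype's mean correlated at 0.48, 0.21 and 0.36 between the arrays numbered 1, 2 and 3. Each is above 0.1, the level set for taking shared numbers as pairs. This comes from the data and not from the labels, and some unmatched pairs also exceed 0.1. Values are from the fit without pairing, the design chosen from the labels, and the replicate block is given beside a result where it changes the call. The other alternatives were quantile normalization, centring on 2 reference genes, a floor at log2 of 4, a filter at a mean of log2 of 5, no intensity trend, and leaving out arrays.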

Additional observations from a re-analysis of the deposited data

How the results depend on the processing

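No member changed sign in any of up to 15 alternatives. BGLU15, BGLU40, BGLU44 and BGLU46 passed in all 15 each. With the replicate number as a block, or with quantile normalization, 7 members rose and 2 fell, the second being BGLU42 (-1.08, adjusted p = 0.0183, and -1.05, adjusted p = 0.0456). The block changed no other member's call. BGLU42 also passed when the 2 reference genes set the scale (-1.22, adjusted p = 0.0268), where 6 rose and 2 fell and BGLU16 did not pass (0.67, adjusted p = 0.0636). That centring moved the median of all probe sets by -0.14, and higher calls made up 36.1% of all calls, against 46.9%. Among the 10998 probe sets with a mean of at least log2 of 5, BGLU41 and BGLU45 were not tested, 5 members rose, BGLU42 passed (-1.08, adjusted p = 0.0479), so that 2 fell, and 4409 probe sets were called. With a floor at log2 of 4, BGLU45 (0.00706, adjusted p = 0.531) and BGLU42 (-1.08, adjusted p = 0.157) did not pass. In that setting 4161 probe sets were called.

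With 1 array left out, 6 to 7 members rose and 1 to 2 fell. BGLU16 then ranged from 0.62 to 0.94 (adjusted p 0.00546 to 0.0881) and BGLU42 from -1.54 to -0.84 (adjusted p 3.38e-04 to 0.161). With both arrays of a number left out, 4 to 7 rose and 0 to 2 fell, and 2493 to 8905 probe sets were called. Without the arrays numbered 1, BGLU42 passed at -1.53 (adjusted p = 7.94e-05). It did not pass without those numbered 2 (-0.84, adjusted p = 0.313) or 3 (-0.88, adjusted p = 0.272). BGLU16 did not pass without those numbered 2 (0.67, adjusted p = 0.163) or 3 (0.79, adjusted p = 0.157). Without those numbered 3, 4 rose and 0 fell in limma, 3151 probe sets were called, and BGLU41 (2.16, adjusted p = 0.0528), BGLU45 (0.82, adjusted p = 0.0622) and BGLU47 (-1.04, adjusted p = 0.0843) did not pass. These fits have fewer arrays. The cause of the other lost or gained calls was not tested. No member has more than 1 single-gene probe set, so no other probe set could be tried. The floor on the ratios between BGLU45, BGLU46 and BGLU47 was added after seeing the data.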
